A study of Mus musculus with 15 samples.

Results

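The genes described here are Hormad2, Htr4, Srgap3, Oprk1, Prdm16, Homer2, Acan, Mn1, Ntrk3 and Gjc1, which are best known from tissues other than T cells. They are 10 of the 39827 genes read from the count table, and they were chosen by their measured read counts, whose level differed very strongly between groups of mouse T cell leukemias. No numeric threshold was set for that choice. All 10 passed the filter on low counts, as did 15948 genes in all. Since measured levels chose them, their own levels and differences are given as a description with no p-value, and tests are reported for their neighbour genes and for related genes.

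RNA-seq was done on leukemic T cells from mouse spleen, in 15 libraries with 3 in each of 5 groups. Bone marrow progenitors (GFP+, lineage-, cKit+, Sca1+) of Bcat1 WT or Bcat1 KO donors had been given ΔE-NOTCH1 with a retrovirus and transplanted into lethally irradiated C57BL/6J mice. The groups were WT0 treated with ERG-245, KO3, KO7, WT6 and WT0 treated with PBS, so every group carried ΔE-NOTCH1 and the groups without the inhibitor are all labelled PBS. ERG-245, an inhibitor of the aminotransferase BCAT1, had been injected intraperitoneally as 3 doses of 30 mg/kg with 8 h between doses. The names of the 3 WT0 vehicle libraries in the file header contain DMSO, whereas their labels give PBS. The labels do not say whether the 3 libraries of a group came from separate mice, so a p-value below sets a difference against the variation among libraries only, and that variation may be technical. Each Bcat1 genotype is represented by only 2 group numbers, KO3 and KO7 or WT0 and WT6.

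ΔE-NOTCH1 is a truncated NOTCH1 receptor that signals without ligand and drives T cell leukemia in mice. Such leukemias grow out as clones, and each clone keeps its own rearranged T cell receptor genes and the regulatory state of the cell it came from. Many genes of neurons, germ cells, cartilage or stem cells are kept silent in T cells by chromatin. A gene of this kind that is transcribed in a T cell leukemia is called ectopic.

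Total counts were 17441292 to 28902573 per library, and 19679 to 20968 genes had at least 1 count. Bcat1, the deleted gene, stood at 13.3 ± 0.774 CPM in WT0 with ERG-245 (mean ± SD, n = 3 libraries, as throughout), 6.95 ± 0.845 in KO3, 2.09 ± 0.596 in KO7, 35.2 ± 0.416 in WT6 and 17.8 ± 0.955 in WT0 with PBS. It was lower in every library of KO3 and KO7 than in any library of the other groups, and it was not absent. CPM are counts scaled to a common library total after TMM adjustment. T-lineage markers such as Cd3e were present in all groups, with sums over 10 markers of 3380 to 5700 CPM per library. The leading T cell receptor beta V segment was Trbv16 in WT0 with ERG-245 (49.9 ± 1.19% of counts over 35 segments), Trbv15 in KO3 (85.6 ± 0.339%), Trbv5 in KO7 (79.1 ± 0.855%), Trbv19 in WT6 (54.4 ± 0.52%) and Trbv17 in WT0 with PBS (39.7 ± 0.855%). Treatment and leading clone cannot be told apart in the comparison of ERG-245 with PBS.

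The genes lie at separate loci, except that Ntrk3 and Acan lie within 500 kb of each other on chromosome 7. In GRCm38, Ntrk3 spans chr7:78179986-78581034, Acan spans chr7:79053226-79115099 and Homer2 spans chr7:81600481-81706925. Acan starts 0.472 Mb past the end of Ntrk3, with 10 other genes between them, and Homer2 lies 2.49 Mb past Acan, with 76 genes between. These 3 genes on 1 chromosome were highest in 3 different groups. Hormad2 (chr11:4345801-4441198) and Gjc1 (chr11:102799477-102819686) are 98.4 Mb apart. The others are Oprk1 (chr1:5588450-5606134), Prdm16 (chr4:154316122-154637360), Mn1 (chr5:111417300-111457030) and Srgap3 (chr6:112717971-112947505), and Htr4 is placed below. Htr4, Oprk1, Acan and Mn1 are on the plus strand and the other 6 on the minus strand.

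Promoter windows of 250 bases before an annotated start were found in RefSeq (GRCm38.p6) for 5 of the 10 genes. The windows differed widely in CpG dinucleotides, the bases at which mammalian DNA is methylated. The median over all 32851 RefSeq promoter windows was 6 CpG and 52.4% G and C. Homer2, which was high in a single group, has a start with 40 CpG (83.2% G and C, as many CpG as or more than 98.9% of all windows) and a start inside the gene with only 3. Acan, also high in a single group, has 26 CpG, Prdm16 has 22, Hormad2 has 10 and Srgap3 has 7. Exons in the count table overlap 239 of the 250 bases for Srgap3, all 250 for Prdm16 and 116 for Hormad2. The CpG and motif values of these windows thus do not describe upstream sequence alone. The windows of Homer2 and Acan, which overlap no exon in the count table, are printed to show this contrast, 5′ to 3′ on the gene's strand with each CG in capitals. They are chr7:81706926-81707175 and chr7:81692966-81693215 for Homer2 (minus strand) and chr7:79052976-79053225 for Acan (plus strand).
Homer2 first start: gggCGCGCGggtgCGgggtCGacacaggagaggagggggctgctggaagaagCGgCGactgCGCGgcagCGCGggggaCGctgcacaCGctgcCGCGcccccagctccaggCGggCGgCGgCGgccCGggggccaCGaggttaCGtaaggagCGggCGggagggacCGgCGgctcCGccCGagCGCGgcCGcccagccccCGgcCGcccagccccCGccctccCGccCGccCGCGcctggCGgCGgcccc
Homer2 inner start: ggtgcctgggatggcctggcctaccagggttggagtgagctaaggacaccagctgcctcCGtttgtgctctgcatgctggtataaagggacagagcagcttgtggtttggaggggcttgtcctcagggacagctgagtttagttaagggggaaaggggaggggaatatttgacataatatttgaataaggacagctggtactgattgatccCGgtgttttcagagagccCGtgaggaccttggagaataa
Acan: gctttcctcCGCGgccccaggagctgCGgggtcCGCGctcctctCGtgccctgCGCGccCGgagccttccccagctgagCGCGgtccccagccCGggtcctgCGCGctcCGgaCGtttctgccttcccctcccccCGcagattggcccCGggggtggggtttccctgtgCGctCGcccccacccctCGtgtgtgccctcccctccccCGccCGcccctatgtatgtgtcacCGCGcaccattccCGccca
Counts were taken per gene, so they do not tell which Homer2 start was used. The letters TGGGAA (either strand), the core of the motif of RBPJ, the DNA-binding partner of NOTCH1, stood once in the Srgap3 window and in none of the other 5 windows, and 21.6% of all promoter windows hold them. TGTGGT (either strand), the core bound by RUNX factors, stood in the window of the inner Homer2 start, as in 14.0% of all windows. TATAAA (either strand) stood in that window and in the Srgap3 window, as in 12.4% of all windows, and CCGGAAGT (either strand), bound by ETS factors, was in none of the 6, against 2.88% of all windows.

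The receptors Htr4, Oprk1 and Ntrk3 and the signalling protein Srgap3 were all highest in WT6. Htr4 (GRCm38 chr18:62323546-62503027) encodes a serotonin receptor coupled to the stimulatory G protein. Its libraries stood at 0.053, 0.104 and 0.152 CPM in WT0 with ERG-245, at 0.897, 0.841 and 0.785 in KO3, and at 0.101, 0.114 and 0.0568 in KO7. They stood at 16.4, 16.7 and 17.2 CPM in WT6, against 0.178, 0.353 and 0.346 in WT0 with PBS. No library outside WT6 reached 1 CPM, and the KO7 level rests on 5 counts over the group, 0.543% of the WT6 level (95% counting interval 0.176 to 1.27%). Such intervals cover counting error only. The log2 difference was -7.44 (SE 0.23) in KO7 as compared with WT6, and it was 5.83 (SE 0.18) in WT6 as compared with WT0 with PBS. KO3 held the second level, 5.03% of WT6, apart from WT0 with PBS and from KO7 in every library.

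Oprk1 encodes the kappa opioid receptor, which couples to inhibitory G proteins and is known from neurons. It stood at 1.11, 0.625 and 0.963 CPM in WT0 with ERG-245, at 1.18, 1.82 and 0.877 in KO3, and at 3.37, 3.86 and 2.16 in KO7. It stood at 17.7, 17.3 and 17.6 CPM in WT6, against 1.42, 1.15 and 1.04 in WT0 with PBS. KO7 was second in every library, and the libraries of the 3 lowest groups overlapped. The log2 difference was -2.48 (SE 0.12) in KO7 and -3.76 (SE 0.14) in KO3, both as compared with WT6.

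Ntrk3 encodes TrkC, the receptor tyrosine kinase for neurotrophin-3. It stood at 0.901, 0.99 and 0.963 CPM in WT0 with ERG-245, at 0.992, 0.888 and 0.6 in KO3, and at 4.93, 3.75 and 3.35 in KO7. It stood at 24.3, 21.6 and 22.8 CPM in WT6, against 0.621, 1.15 and 0.75 in WT0 with PBS. WT6 was highest and KO7 second with no overlap, as for Oprk1, and KO7 reached 17.6% of the WT6 level (15.3 to 20.3%) for Ntrk3 and 17.9% (15.2 to 21.0%) for Oprk1.

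Srgap3 encodes a GTPase-activating protein that acts downstream of the SLIT and ROBO guidance proteins in neurons. It stood at 0.901, 1.62 and 1.22 CPM in WT0 with ERG-245, at 2.03, 2.1 and 1.38 in KO3, and at 2.97, 1.82 and 2.1 in KO7. It stood at 60.0, 59.3 and 64.1 CPM in WT6, against 1.69, 1.15 and 1.85 in WT0 with PBS. WT6 alone stood apart, and the neighbouring levels among the other 4 groups all overlapped. The mean in WT6 was 61.1 ± 2.59 CPM, 39.7 times that in WT0 with PBS (32.4 to 49.1). WT6 also had the highest sums of B and plasma cell markers (8400 to 8750 CPM per library over 9 genes, against 1320 to 4140 in the other groups) and of neutrophil markers (316 to 337 CPM over 9 genes, against 3.04 to 178). The part of such cells in the WT6 levels of these 4 genes was not tested.

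Mn1, a transcriptional coregulator named for a translocation in meningioma and known as an oncogene in myeloid leukemia, was high in KO7 and in WT6. It stood at 0.901, 0.313 and 0.76 CPM in WT0 with ERG-245, at 0.85, 0.561 and 0.831 in KO3, and at 18.5, 19.4 and 18.0 in KO7. It stood at 18.3, 19.3 and 16.5 CPM in WT6, against 0.488, 0.485 and 0.346 in WT0 with PBS. KO7 and WT6 overlapped, with a ratio of 1.03 (0.949 to 1.12), and so each genotype had a leukemia with high Mn1 and a leukemia with low Mn1. KO3 stood at 4.01% of KO7 (2.94 to 5.35%), and WT0 with PBS was the lowest group by mean.

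Hormad2 encodes a HORMA-domain protein of unpaired chromosome axes in meiosis, and it was high in KO7. It stood at 0.742, 1.3 and 1.77 CPM in WT0 with ERG-245, at 0.142, 0.234 and 0.0923 in KO3, and at 12.8, 12.2 and 12.7 in KO7. It stood at 0.0998, 0.0787 and 0.266 CPM in WT6, against 2.04, 2.34 and 3.23 in WT0 with PBS. KO7 was on top, WT0 with PBS and then WT0 with ERG-245 followed without overlap, and KO3 and WT6 overlapped at the bottom. The log2 difference was 6.42 (SE 0.24) in KO7 as compared with WT6, where the WT6 level rests on 11 counts, and -6.28 (SE 0.25) in KO3 as compared with KO7. The log2 ratio of mean CPM between KO7 and WT6 was 6.4 over all libraries and 7.14 without WT6 replicate 3, and it kept its direction. Summed erythroid markers, over 10 genes of which none was at 0, were also highest in KO7 and lowest in KO3 and WT6. They ran from 36600 to 39900 CPM in WT0 with ERG-245, 8700 to 9130 in KO3, 44200 to 45900 in KO7, 9080 to 10400 in WT6 and 31000 to 32200 in WT0 with PBS. Within WT0 their order was the reverse of that of Hormad2, with ERG-245 above PBS. Summed macrophage and monocyte markers, over 10 genes, were 3270 to 3290 CPM per library in KO7, against 1100 to 1940 in the other groups. Of these genes Lyz2 was lowest in KO7 (53.6 CPM). The part of erythroid cells, macrophages and monocytes in the Hormad2 levels was not tested. In these bulk samples, fewer cells of a type and less RNA per cell cannot be told apart.

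Acan encodes aggrecan, the large proteoglycan of cartilage, and it was high in KO3. It stood at 0.636, 0.208 and 0.405 CPM in WT0 with ERG-245, at 14.4, 13.3 and 15.8 in KO3, and at 0.804, 1.76 and 1.42 in KO7. It stood at 0.499, 0.275 and 0.443 CPM in WT6, against 3.2, 3.26 and 2.77 in WT0 with PBS. The WT6 and ERG-245 libraries overlapped at the bottom, and WT0 with PBS was second without overlap. The log2 difference was 5.13 (SE 0.18) in KO3 as compared with WT6 and -2.88 (SE 0.27) in WT0 with ERG-245 as compared with PBS. Of the chondrocyte collagens examined, Col9a1 was at 0 and Col2a1 at 0.225 CPM at most, while Col11a2 stood at 19.5 to 32.1 CPM over the groups. The sum of 7 chondrocyte markers, nearly all of it Col11a2, was 21.0 to 21.9 CPM per library in KO3 and 29.8 to 35.1 in WT0 with PBS. The part of such cells in the Acan levels was not tested.

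Gjc1 encodes connexin 45, a gap junction subunit known from the cardiac conduction system and smooth muscle, and it was high in KO3 and in WT0 with PBS. It stood at 1.85, 1.56 and 1.42 CPM in WT0 with ERG-245, at 28.7, 30.7 and 29.4 in KO3, and at 2.77, 4.15 and 3.24 in KO7. It stood at 6.89, 6.37 and 6.03 CPM in WT6, against 38.5, 38.1 and 39.4 in WT0 with PBS. No adjacent groups in its order overlapped, which held for no other of the 10 genes. WT0 with ERG-245 stood at 4.17% of WT0 with PBS (3.35 to 5.13%), and KO3 at 76.7% (72.2 to 81.4%). Alone among 9 stromal and endothelial markers, Pdgfrb had the same highest groups, at 302 CPM in WT0 with PBS and 228 in KO3. The sum of the 9 was 559 to 568 CPM per library in WT0 with PBS and 481 to 489 in KO3, against 479 to 493 in the other groups. The part of such cells in the Gjc1 levels was not tested.

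The transcription factor Prdm16 and the scaffold Homer2 were high in WT0 with ERG-245. Prdm16 is a zinc finger protein of the PR domain family that acts in brown fat and haematopoietic stem cells. It stood at 11.6, 10.9 and 10.9 CPM in WT0 with ERG-245, at 0.378, 0.607 and 0.138 in KO3, and at 0.553, 0.625 and 1.08 in KO7. It stood at 0.798, 0.315 and 1.06 CPM in WT6, against 0.666, 0.529 and 0.866 in WT0 with PBS. The neighbouring levels of the other 4 groups overlapped, and the log2 difference between ERG-245 and PBS was 4.04 (SE 0.21). WT0 with ERG-245 had the lowest sum of T-lineage markers, 3380 to 3420 CPM per library over 10 genes, against 4570 to 4620 in WT0 with PBS, and the part of such a shift in this difference was not tested.

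Homer2 encodes a postsynaptic scaffold that binds metabotropic glutamate receptors and SHANK proteins. It stood at 22.8, 24.0 and 25.4 CPM in WT0 with ERG-245, at 1.09, 0.841 and 0.969 in KO3, and at 2.66, 1.76 and 2.27 in KO7. It stood at 3.83, 3.74 and 3.37 CPM in WT6, against 1.73, 2.03 and 2.89 in WT0 with PBS. WT6 was second and KO3 lowest, both without overlap with the next group. The log2 difference was 3.47 (SE 0.12) between ERG-245 and PBS and -1.92 (SE 0.19) in KO3 as compared with WT6.

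**Figure D1:**
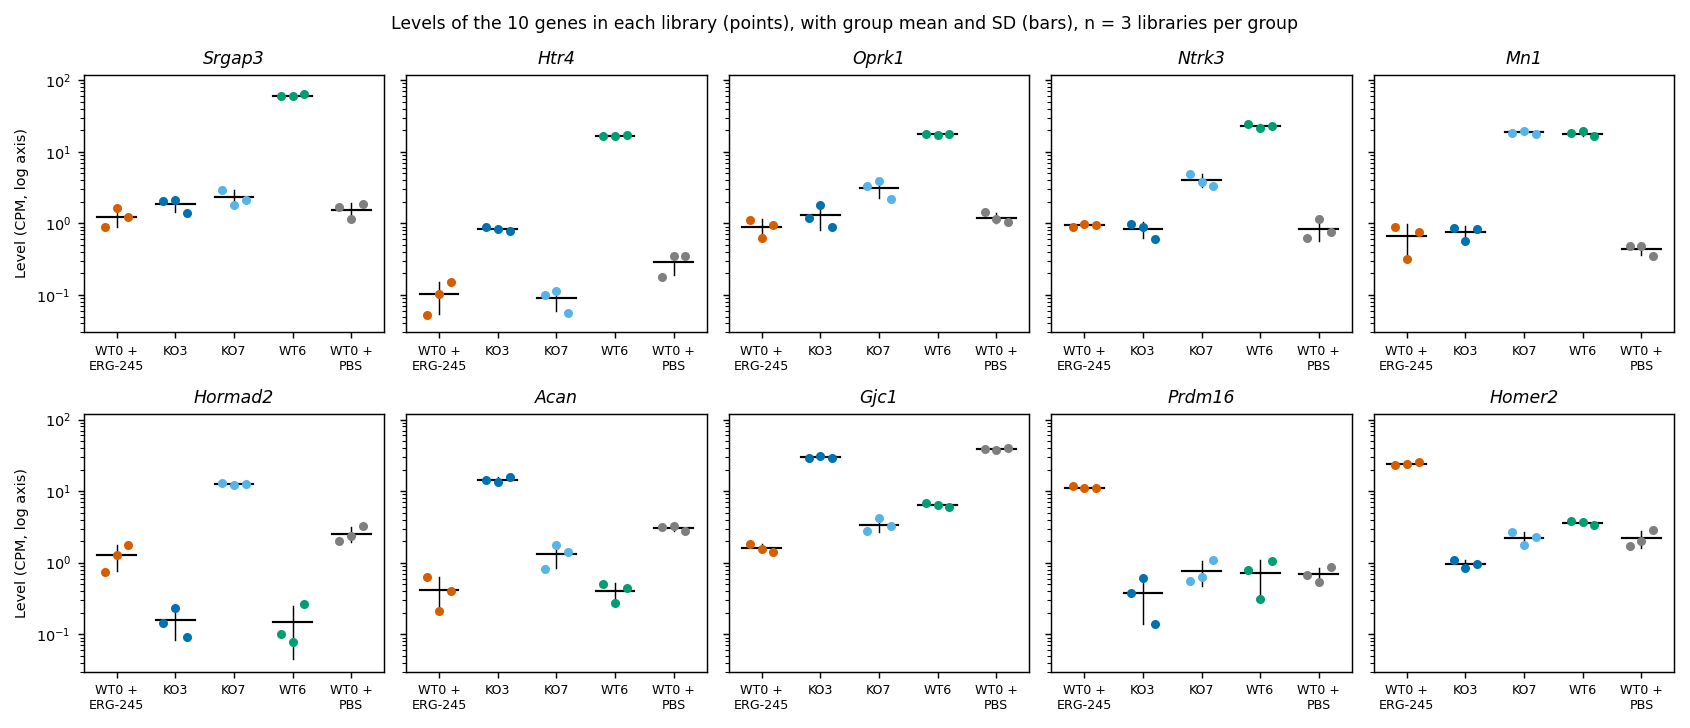
Levels of the 10 genes in CPM on a log axis, in 5 groups from left to right (WT0 with ERG-245, KO3, KO7, WT6, WT0 with PBS). Points are libraries, horizontal bars are means of 3 libraries and vertical bars are SD. Srgap3, Htr4, Oprk1 and Ntrk3 are highest in WT6, Prdm16 and Homer2 in WT0 with ERG-245, Hormad2 in KO7 and Acan in KO3, while Mn1 and Gjc1 are each high in a pair of groups.

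Since the groups share libraries between comparisons, the counts of strongly different genes per comparison are not independent. Since such differences chose the genes, how many of them pass a threshold only describes that choice, and nothing is read from these counts. A gene is called at an edgeR quasi-likelihood Benjamini-Hochberg adjusted p under 0.05 over all 15948 genes and at least a 2-fold difference. In WT0 with ERG-245 as compared with PBS, 2 of the 10 genes were higher, against 5.67% of all genes, and 3 lower, against 6.05%. In KO7 as compared with WT6, 2 were higher (9.29% of all genes) and 4 lower (8.17%). In KO3 as compared with WT6, 2 were higher (4.04%) and 6 lower (7.46%). In KO7 as compared with WT0 with PBS, 4 were higher (8.64%) and 3 lower (7.56%). In KO3 as compared with WT0 with PBS, 2 were higher (4.45%) and 2 lower (7.8%). In WT6 as compared with WT0 with PBS, 5 were higher (9.15%) and 3 lower (9.74%). In KO3 as compared with KO7, 3 were higher (7.29%) and 5 lower (12.3%). Differences of at least 8-fold numbered 26 over the 7 comparisons. There were 3 in WT0 with ERG-245 as compared with PBS (1.4% of all genes), 3 in KO7 as compared with WT6 (1.92%) and 6 in KO3 as compared with WT6 (1.13%). There were 2 in KO7 (1.4%), 1 in KO3 (1.16%) and 6 in WT6 (2.48%), each as compared with WT0 with PBS, and 5 in KO3 as compared with KO7 (1.54%).

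For none of the 10 genes did the libraries of KO3 and KO7 all lie on the same side of the libraries of WT6 and WT0 with PBS. The share of all tested genes set apart in this way was not computed. Since level differences between groups chose the 10 genes, nothing is read from this count. For Htr4, Srgap3, Oprk1 and Ntrk3, KO3 and KO7 were both lower than WT6, and WT0 with PBS, a wild type, was lower than WT6 as well. For Hormad2 the KO groups lay on both sides of the WT groups, with KO7 highest and KO3 near the lowest. Acan was higher in KO3 and lower in KO7 than in WT0 with PBS.

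Genes at 5 CPM or more in a group and at least 4 times every other group were rare. They numbered 20 of 10811 genes at that level in WT0 with ERG-245 (0.185%), 15 of 10809 in KO3 (0.139%) and 11 of 10894 in KO7 (0.101%). WT6 had 54 of 10987 (0.491%) and WT0 with PBS had 5 of 10785 (0.0464%). Prdm16 and Homer2 were among the ERG-245 genes, Acan among those of KO3, Hormad2 of KO7, and Htr4, Srgap3, Oprk1 and Ntrk3 of WT6. Mn1 and Gjc1 were in no such group.

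Per length, the genes were low to middling even where they were highest. On the scale of CPM per kb of merged exon, Gjc1 reached 11.5 in WT0 with PBS, above 64.9% of all tested genes, and 8.79 in KO3. Srgap3 reached 4.5 in WT6 and Hormad2 4.49 in KO7, above 45.3% and 46.0% of tested genes. Oprk1 reached 3.7 in WT6 and Mn1 2.72 in KO7 and 2.64 in WT6. Homer2 reached 2.1 and Prdm16 1.17 in WT0 with ERG-245, and Acan 1.88 in KO3. Ntrk3 at 1.1 and Htr4 at 1.06 in WT6 were the lowest, above 26.5% and 26.1% of tested genes. At the other end, Htr4 stood at 0.00569 CPM per kb in KO7, above 0.238% of tested genes.

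The genes whose pattern over the 5 group means came nearest to each of the 10 were found by the root mean square (RMS) difference of centred log2 CPM, among tested genes other than gene models and receptor segments. Over 5 group means such likeness is easily met and is given as a description. Among the genes highest in WT6, Oprk1 and Ntrk3 differed by an RMS of 0.41 log2, whereas the gene nearest to Htr4, which was Srgap3, lay at 0.89. Osbpl6, an oxysterol-binding protein relative, was nearest to both Oprk1 (0.3) and Srgap3 (0.53), at 0.189 CPM in WT0 with ERG-245, 0.218 in KO3, 0.435 in KO7, 4.97 in WT6 and 0.315 in WT0 with PBS. Hes5, a NOTCH target and transcriptional repressor, lay at 0.37 from Oprk1, with 1.11, 2.93 and 4.34 CPM in WT0 with ERG-245, KO3 and KO7, 29.9 in WT6 and 1.3 in WT0 with PBS. Grin2c, a subunit of NMDA glutamate receptors, lay at 0.45 from Ntrk3 and at 0.9 from Mn1, for which it was the nearest gene, at 24.7 CPM in KO7 and 68.4 in WT6, against 4.76 in WT0 with PBS. Wif1, a secreted WNT inhibitor, lay at 0.45 and 0.94 from the same pair, at 1.15 CPM at most.

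Prdm16 had the nearest matches. Serinc2, a membrane protein of the serine incorporator family, lay at an RMS of 0.18, Cda, the cytidine deaminase of pyrimidine salvage, at 0.24 and Hsd11b2, which inactivates cortisol and corticosterone, at 0.3. Cda stood at 12.2 CPM in WT0 with ERG-245, against 1.14 in WT0 with PBS. Serinc2 and Cda lie on chromosome 4, as does Prdm16. Prdm16 and Homer2 differed by 0.41, and C2cd4a (0.32) and Zfp750 (0.48), a transcription factor of epidermal differentiation, were the other genes near Homer2. Acan came nearest to Cfap20dc (0.46), Pkp1, a desmosome plaque protein (0.48), and Igfbpl1 (0.51). Igfbpl1 stood at 7.05 CPM in KO3 and 2.97 in WT0 with PBS. Gjc1 came nearest to Kcnn2, a calcium-activated potassium channel (0.34), Stra6l (0.38) and Gria2, an AMPA glutamate receptor subunit (0.39). Gria2 stood at 0.103 CPM in WT0 with ERG-245, 2.96 in KO3 and 5.05 in WT0 with PBS. The gene nearest to Hormad2 was Msln, the surface protein mesothelin, at 0.85, then Ccdc92b at 1.01 and Fgfr4, a fibroblast growth factor receptor, at 1.08. Necab1, a neuronal calcium-binding protein, lay at 1.0 from Htr4, at 19.2 CPM in KO3, 14.1 in KO7 and 150.0 in WT6, against 7.49 in WT0 with PBS.

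**Figure D2:**
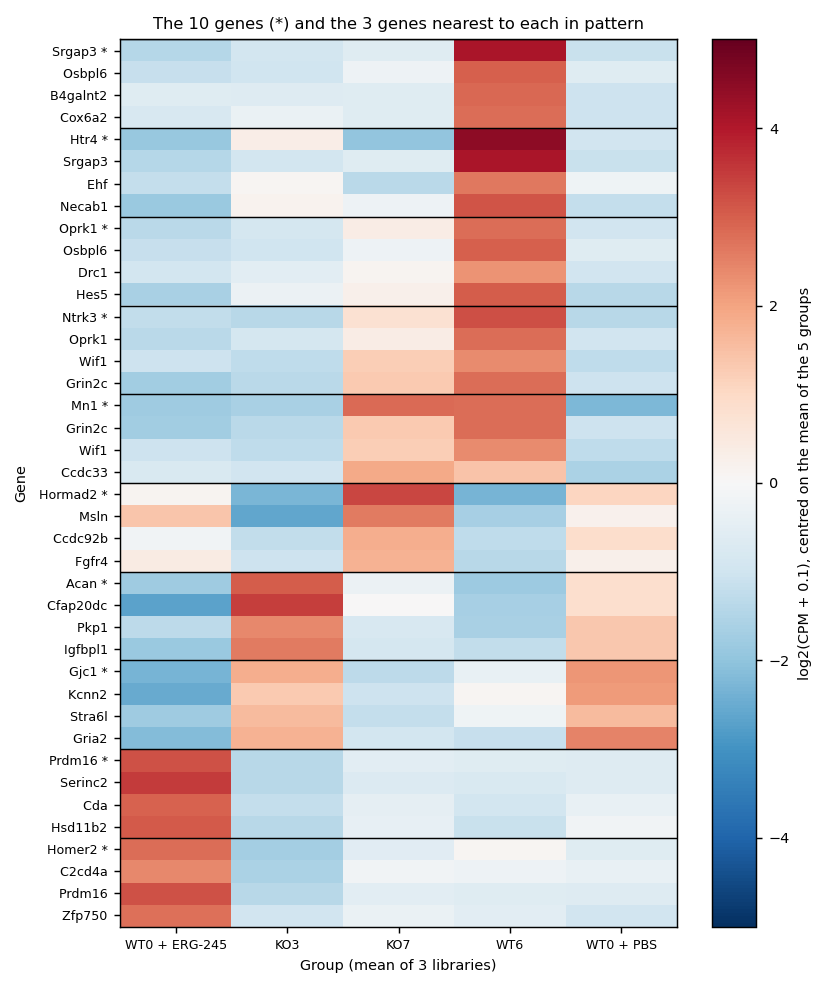
Group means of the 10 genes (asterisks) and of the 3 genes nearest in pattern to each, as log2(CPM + 0.1) centred on the mean of the 5 groups. Columns are WT0 with ERG-245, KO3, KO7, WT6 and WT0 with PBS, red is above and blue below the gene's mean, and lines part the blocks. The blocks of Srgap3, Htr4, Oprk1 and Ntrk3 are red in WT6, and those of Prdm16 and Homer2 are red in WT0 with ERG-245.

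To evaluate whether the chromosomal surroundings moved along, the 3 nearest genes on each side of each of the 10 were examined in the comparisons where the gene itself differed at least 8-fold. Of 60 such neighbours 24 passed the filter on low counts, which gave 64 pairs of a neighbour and a comparison. In 7 pairs (10.9%) the neighbour was called in the same direction as its gene and in 5 (7.81%) in the opposite direction. Over all tested genes in the same comparisons and directions, 8.16% and 7.76% were called. The share in either direction was near that of all genes. The pairs are not independent, since a neighbour recurs over comparisons that share libraries.

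Ntrk3 had 4 of the 7 pairs. The long noncoding RNA E430016F16Rik lies upstream of the Ntrk3 start on the same strand and ends 32 bases before it. It stood at 0.728 ± 0.12 CPM in WT0 with ERG-245, 0.358 ± 0.0305 in KO3, 1.32 ± 0.166 in KO7, 1.05 ± 0.0985 in WT6 and 0.292 ± 0.0637 in WT0 with PBS. It was lower in KO3 than in WT6 (log2 -1.55, SE 0.35, edgeR adjusted p = 9e-05) and higher in WT6 than in WT0 with PBS (log2 1.86, SE 0.37, edgeR adjusted p = 7.45e-06). For this RNA the mean was higher in KO7 than in WT6, while Ntrk3 in KO7 stood at 17.6% of WT6.

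Farther along, 146 kb from Ntrk3, the noncoding RNA Gm30892 stood at 4.28 ± 0.197 CPM in WT0 with ERG-245, 6.19 ± 0.275 in KO3, 8.17 ± 0.734 in KO7, 12.7 ± 1.12 in WT6 and 3.49 ± 0.483 in WT0 with PBS. It was higher in WT6 than in WT0 with PBS (log2 1.84, SE 0.11, edgeR adjusted p = 2.13e-25). It was lower in KO3 than in WT6 (log2 -1.03, SE 0.1, edgeR adjusted p = 3.5e-15), which fell short of 2-fold without WT6 replicate 1 or 3 (log2 -1.1 to -0.99 over the alternatives). WT6 and KO7 were the highest groups for both Ntrk3 and Gm30892.

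Homer2 and Gjc1 had a pair each. Gm32579, a noncoding RNA on the Homer2 strand that ends 1.23 kb from the Homer2 start, stood at 0.987 ± 0.245 CPM in WT0 with ERG-245 and 0.283 ± 0.0455 in WT0 with PBS (log2 1.76, SE 0.42, edgeR adjusted p = 0.000182). It also stood at 0.53 ± 0.183 CPM in KO7, where Homer2 was low. Adam11, an ADAM-family membrane protein without protease activity that lies 19.2 kb from Gjc1, fell to 1.63 ± 0.333 CPM in WT0 with ERG-245, against 4.24 ± 0.712 in WT0 with PBS (log2 -1.39, SE 0.19, edgeR adjusted p = 7.36e-10). Adam11 stood at 4.05 ± 0.442 CPM in KO7 and 2.31 ± 0.284 in KO3, opposite in order to Gjc1.

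The remaining pair was Fbxo38, a ubiquitin ligase subunit on the opposite strand 1.03 kb past Htr4. It stood at 87.3 ± 0.889 CPM in KO7 and 175.0 ± 1.7 in WT6 (log2 -1.0, SE 0.03, edgeR adjusted p = 2.35e-44), at the edge of the 2-fold threshold. The adjusted p passed in all 20 alternatives and the 2-fold threshold in 8, with log2 from -1.01 to -0.98. Leaving out any library of KO3, WT0 with PBS replicate 1 or 2, WT6 replicate 1 or 2 or KO7 replicate 2 ended the call. It was also lost with DESeq2, with edgeR RLE scaling, without the filter on low counts and in a fit of only the groups compared.

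Neighbours called in the opposite direction lay beside Hormad2, Srgap3 and Acan. Lif, a cytokine of the interleukin-6 family 73.3 kb from Hormad2, stood at 1.91 ± 0.532 CPM in KO3, 0.553 ± 0.224 in KO7 and 2.13 ± 0.315 in WT6. KO7 was below WT6 (log2 -1.96, SE 0.3, edgeR adjusted p = 2.98e-08). Isg20, an interferon-induced exonuclease between Ntrk3 and Acan, stood at 65.0 ± 1.25 CPM in KO3 and 253.0 ± 7.45 in KO7 (log2 -1.96, SE 0.03, edgeR adjusted p = 4.24e-63). Mfge8, a secreted protein that bridges apoptotic cells to phagocytes, lies 18.7 kb from Acan and stood at 72.1 ± 1.25 CPM in KO3 and 150.0 ± 8.13 in WT6 (log2 -1.06, SE 0.04, edgeR adjusted p = 1.94e-40). Gm35824 near Srgap3 stood at 0.434 ± 0.0367 CPM in WT6 and 1.26 ± 0.209 in WT0 with PBS (log2 -1.54, SE 0.34, edgeR adjusted p = 4.54e-05).

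Beside Mn1, Oprk1 and Prdm16 none of these nearest neighbours was called by edgeR (0 of 8, 4 and 1 pairs), nor by DESeq2. At an unadjusted edgeR p under 0.05 without regard to size, 4, 2 and 0 of these pairs passed. Genes at an equal gap were ranked by position. Inside the Prdm16 body this gave all 3 higher-coordinate places to noncoding RNAs that were not tested. The noncoding RNA 5930403L14Rik, also at a gap of 0, was thereby left out of the pairs, and its call is given below. The Mn1 neighbours Pitpnb, a phosphatidylinositol transfer protein, and Ttc28 ran from 97.3 to 115.0 and from 7.02 to 9.78 CPM over the 5 groups, while Mn1 itself ran from 0.44 to 18.6. Among the 6 nearest genes of Oprk1, the nearest that was tested was Atp6v1h, a subunit of the vacuolar proton pump, 425 kb away. Hapln3, a gene of the link proteins that join aggrecan to hyaluronan, lies 1.93 kb past Acan and did not pass the filter, at 0.11 CPM in KO3 and 0.331 at most. These uncalled neighbours were named after their values were seen.

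**Figure D3:**
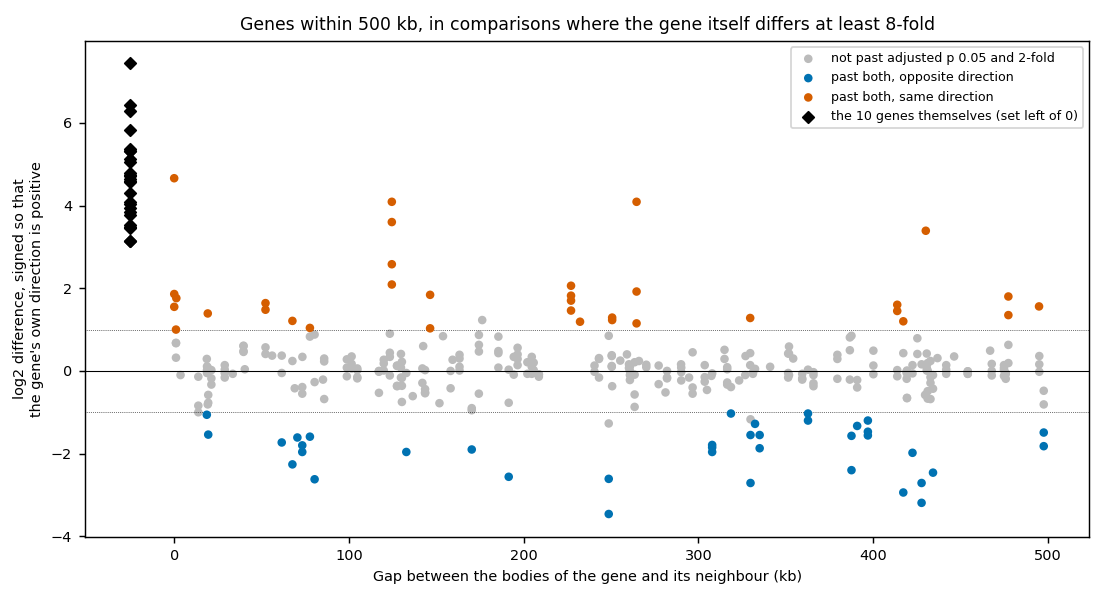
Genes within 500 kb of the 10 genes, in the comparisons where the gene itself differs at least 8-fold. The horizontal axis is the gap between gene bodies in kb and the vertical axis the neighbour's log2 difference, signed so that the gene's own direction is positive. Orange and blue points are neighbours called in the same (34 of 344 pairs) and the opposite direction (38), grey points were not called, and black diamonds left of 0 are the 10 genes.

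Within 500 kb, 344 pairs were tested, of which 34 (9.88%) were called in the same direction and 38 (11.0%) in the opposite direction. Over all tested genes in the same comparisons and directions, 7.9% and 7.88% were called. The pairs are not independent, since neighbours recur over comparisons that share libraries and the windows of Ntrk3 and Acan overlap. In KO3 as compared with WT6, E430016F16Rik and Gm30892 counted as same for Ntrk3 and as opposite for Acan. Gjc1 alone gave 87 pairs, 10 called in the same and 15 in the opposite direction. Nothing is therefore read from these shares. The following genes were named after their values were seen. Inside the Prdm16 body, on the same strand, lies the noncoding RNA 5930403L14Rik, whose whole span of 5677 bases overlaps the gene. It stood at 2.58 ± 0.0884 CPM in WT0 with ERG-245, 0 in KO3, 0.0524 in KO7, 0.0612 in WT6 and 0.0973 ± 0.0466 in WT0 with PBS. It was higher with ERG-245 than with PBS (log2 4.66, SE 0.43, edgeR adjusted p = 7.48e-16), and WT0 with ERG-245 was the highest group and KO3 the lowest for both it and Prdm16. Because both lie on the same strand, reads of unspliced Prdm16 RNA and of this RNA cannot be told apart.

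C130026L21Rik, a noncoding RNA 125 kb past Mn1, was called in the direction of Mn1 in all 4 comparisons where Mn1 differed at least 8-fold. It stood at 0.0347 CPM in WT0 with ERG-245, 0.0467 in KO3, 0.621 ± 0.311 in KO7, 0.906 ± 0.238 in WT6 and 0.151 ± 0.0959 in WT0 with PBS. The log2 difference was -4.09 (SE 0.64, edgeR adjusted p = 6.46e-08) in KO3 as compared with WT6 and 2.09 (SE 0.58, edgeR adjusted p = 0.00103) in KO7 as compared with WT0 with PBS. Its KO3 level rests on 3 counts over the group, so the size of the first difference is uncertain. Gm36223, a noncoding RNA at 52.2 kb, was called in the direction of Mn1 in KO3 as compared with WT6 and with KO7, and the call against KO7 was lost without KO3 replicate 3 (log2 -1.88 to -1.0 over the alternatives). It stood at 0.219 CPM in KO3, 0.618 in KO7 and 0.691 in WT6, and at 0.605 in WT0 with ERG-245, where Mn1 was low.

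Near Homer2, the nucleoside transporter Slc28a1 at 430 kb was higher with ERG-245 than with PBS (3.57 ± 0.155 and 0.337 ± 0.0226 CPM, log2 3.39, SE 0.32, edgeR adjusted p = 1.19e-15). Alpk3, a kinase known from heart muscle, at 495 kb stood at 3.35 ± 0.524 CPM with ERG-245 and 1.14 ± 0.0613 with PBS (log2 1.56, SE 0.23, edgeR adjusted p = 1.24e-08). Near Hormad2, the lipid-binding protein gene Sec14l2 at 227 kb stood at 15.4 ± 0.85 CPM in KO3, 54.2 ± 1.28 in KO7, 12.9 ± 0.856 in WT6 and 42.2 ± 0.981 in WT0 with PBS. It was called in the direction of Hormad2 in 4 of 4 comparisons, and it was high in the groups with high erythroid marker sums given above. The part of those cells in the Sec14l2 values was not tested. Near Gjc1, Slc4a1, the red cell anion exchanger and an erythroid marker, was called opposite to Gjc1 in KO3 as compared with KO7 (log2 -2.46, SE 0.02, edgeR adjusted p = 1.51e-78).

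Related genes were examined to see whether partners of the 10 genes were transcribed too. Lists of paralogs and partners, with the 10 genes left out, held 2 to 12 tested genes each. The median log2 difference of all genes lay between -0.03 and 0.01 in each comparison, and the shares of all genes called per comparison are those given above.

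Among serotonin genes 3 of 15 passed the filter. Htr7, another serotonin receptor coupled to the stimulatory G protein, was highest in WT6, as was Htr4. It stood at 0.328 ± 0.0715 CPM in WT0 with ERG-245, 1.84 ± 0.26 in KO3, 0.551 ± 0.172 in KO7, 4.4 ± 0.0328 in WT6 and 0.962 ± 0.335 in WT0 with PBS. It was lower in KO7 than in WT6 (log2 -3.0, SE 0.25, edgeR adjusted p = 3.18e-18) and higher in WT6 than in WT0 with PBS (log2 2.19, SE 0.21, edgeR adjusted p = 3.43e-15). Slc6a4, the serotonin transporter, fell to 0.312 ± 0.0559 CPM in WT0 with ERG-245, against 5.58 ± 0.0568 in WT0 with PBS (log2 -4.14, SE 0.24, edgeR adjusted p = 5.51e-26). Platelets carry serotonin through this transporter, and the sum of 8 platelet markers was 40.0 to 43.7 CPM per library with ERG-245 and 192 to 199 with PBS. Their part in the Slc6a4 difference was not tested. Over the 3 tested serotonin genes in KO7 as compared with WT6, 0 rose and 1 fell, with a median log2 of -0.95.

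Of 7 other opioid genes 3 were tested. Penk, which encodes the enkephalin precursor, was highest in WT6, as was Oprk1. Penk stood at 0.398 ± 0.024 CPM in WT0 with ERG-245, 1.42 ± 0.175 in KO3, 0.931 ± 0.18 in KO7, 3.72 ± 0.366 in WT6 and 0.985 ± 0.133 in WT0 with PBS. Penk was lower in KO7 than in WT6 (log2 -2.0, SE 0.22, edgeR adjusted p = 1.03e-12) and higher in WT6 than in WT0 with PBS (log2 1.92, SE 0.21, edgeR adjusted p = 7.11e-13). Oprm1, the mu opioid receptor, stood at 0.64 ± 0.315 CPM in KO3 and 0.163 ± 0.0337 in WT6 (log2 1.9, SE 0.49, edgeR adjusted p = 0.000564), the reverse of Oprk1. In KO3 as compared with WT6, 1 of the 3 rose and 1 fell, with a median log2 of 0.67.

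Neurotrophin genes other than Ntrk3 were mostly below the filter, with 3 of 8 tested. Ntrk2, the receptor TrkB for brain-derived neurotrophic factor, stood at 1.9 ± 0.0759 CPM in KO7, 0.412 ± 0.0543 in WT6 and 0.644 ± 0.0423 in WT0 with PBS. KO7 exceeded WT6 (log2 2.2, SE 0.32, edgeR adjusted p = 8.63e-09) and WT0 with PBS (log2 1.56, SE 0.31, edgeR adjusted p = 8.92e-06). Ngfr, the p75 neurotrophin receptor, was higher in WT6 than in WT0 with PBS (log2 1.35, SE 0.27, edgeR adjusted p = 1.13e-05). In WT6 as compared with WT0 with PBS, 1 of 3 rose and 0 fell, with a median log2 of 0.03.

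All 9 other SLIT, ROBO and SRGAP genes were tested. Slit2, named after its values were seen, stood at 0.782 ± 0.248 CPM in WT0 with ERG-245, 0.434 ± 0.234 in KO3, 0.162 ± 0.0918 in KO7, 1.08 ± 0.249 in WT6 and 0.391 ± 0.127 in WT0 with PBS. Its WT6 mean was the highest, and it lay within about the spread of replicates from that with ERG-245. Srgap2, the paralog with the highest counts, stood at 81.4 ± 0.46 CPM in WT0 with ERG-245, 77.7 ± 0.244 in KO3, 65.3 ± 0.775 in KO7, 59.8 ± 0.989 in WT6 and 125.0 ± 3.03 in WT0 with PBS. It was lower in WT6 than in WT0 with PBS (log2 -1.06, SE 0.03, edgeR adjusted p = 6.68e-43), whereas Srgap3 was higher. The ligand Slit3 stood at 8.29 ± 0.601 CPM in KO7 and 2.52 ± 0.356 in WT6 (log2 1.71, SE 0.14, edgeR adjusted p = 7.12e-18). In KO7 as compared with WT6, 4 rose and 2 fell, with a median log2 of 0.46, and in WT6 as compared with WT0 with PBS, 1 rose and 3 fell, with a median of -0.73.

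In the PRDM family, none of 9 tested genes was called by edgeR or by DESeq2 in WT0 with ERG-245 as compared with PBS, where Prdm16 was 16.6 times higher (12.1 to 23.2). At an unadjusted edgeR p under 0.05 and any size, 7 of the 9 passed, with log2 values of -0.629 to 0.597. Prdm1, which encodes BLIMP1 and drives plasma cell differentiation, stood at 4.39 ± 0.348 CPM in KO7 and 13.2 ± 1.95 in WT6 (log2 -1.6, SE 0.12, edgeR adjusted p = 9.1e-21). The sum of 9 B and plasma cell markers was 4070 to 4140 CPM per library in KO7 and 8400 to 8750 in WT6, and their part in the Prdm1 difference was not tested.

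Of the scaffolds related to Homer2, Homer1 stood at 14.3 ± 0.642 CPM in WT0 with ERG-245 and 11.4 ± 0.84 in WT0 with PBS, and Homer3 at 11.0 ± 1.12 and 14.1 ± 0.588 CPM, and neither was called there. Shank1, a postsynaptic scaffold that binds HOMER proteins, fell to 0.415 ± 0.239 CPM with ERG-245, against 5.8 ± 0.752 with PBS (log2 -3.78, SE 0.26, edgeR adjusted p = 8.99e-22). Shank1 was highest in WT0 with PBS and was lower in KO3, KO7 and WT6 too (log2 -1.8, -3.91 and -3.55).

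Of 8 lecticans and link proteins related to Acan, Vcan and the hyaluronan receptor Cd44 were tested, and neither was called in any of 7 comparisons by edgeR or DESeq2. In 11 of the 14 pairs the unadjusted edgeR p was under 0.05, with log2 values of -0.924 to 0.726. Vcan, the lectican versican, stood at 2.58 ± 0.529 CPM in KO3 and 4.22 ± 0.548 in WT6.

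Of 10 other genes that act with MN1 in myeloid leukemia or stem cells, 7 were tested, and in WT6 as compared with WT0 with PBS and in KO7 as compared with WT0 with PBS edgeR and DESeq2 called 0 of them. At an unadjusted edgeR p under 0.05 and any size, 4 and 5 passed. Pbx3, a homeobox partner of MEIS1, stood at 10.0 CPM in WT0 with ERG-245, 11.1 in KO3, 14.6 in KO7, 8.14 in WT6 and 10.6 in WT0 with PBS. Flt3, a cytokine receptor of progenitors, fell to 1.18 ± 0.387 CPM with ERG-245, against 2.77 ± 0.196 with PBS (log2 -1.24, SE 0.22, edgeR adjusted p = 1.25e-06), and to less than 2-fold without replicate 2 of the ERG-245 group (log2 -0.99).

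Among other meiotic chromosome genes 12 of 23 were tested, and in KO7 as compared with WT6 1 rose and 2 fell, with a median log2 of 0.4. Rec114, needed for meiotic DNA breaks, resembled Hormad2 in part. It stood at 6.55 ± 0.503 CPM in WT0 with ERG-245, 2.79 ± 0.112 in KO3, 10.5 ± 1.04 in KO7, 2.92 ± 0.389 in WT6 and 11.6 ± 0.786 in WT0 with PBS. It was higher in KO7 than in WT6 (log2 1.84, SE 0.12, edgeR adjusted p = 1.38e-23), and, unlike Hormad2, KO7 and WT0 with PBS did not differ past the threshold (log2 -0.14, SE 0.1, edgeR adjusted p = 0.192). Syce2, of the synaptonemal complex, was higher with ERG-245 than with PBS (65.4 ± 2.69 and 31.0 ± 0.639 CPM, log2 1.08, SE 0.05, edgeR adjusted p = 1e-31). The sum of 7 germ cell markers was 7.71 to 9.33 CPM per library in WT0 with ERG-245, 12.3 to 12.6 in KO3, 12.8 to 13.0 in KO7, 13.5 to 14.3 in WT6 and 12.6 to 15.3 in WT0 with PBS. Of these markers Tex101 and Mael had 0 counts in every group.

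Of 19 other connexins 6 were tested. In WT0 with ERG-245 as compared with PBS, 2 rose and 0 fell, with a median log2 of 0.52, whereas Gjc1 was lower. Gja4, a connexin of arterial endothelium, rose with ERG-245 (log2 1.4, SE 0.26, edgeR adjusted p = 2.27e-06). The sum of 9 stromal and endothelial markers was 483 to 484 CPM per library with ERG-245 and 559 to 568 with PBS. Of these markers Pdgfrb alone had a lower mean with ERG-245 (143 CPM, against 302 with PBS). The endothelial markers Pecam1 (105 and 88.2 CPM), Cdh5 (25.4 and 16.1) and Kdr (16.8 and 13.4) were higher with ERG-245. Their part in the Gja4 difference was not tested. In KO3 as compared with KO7, 1 connexin rose and 1 fell, with a median log2 of -0.75.

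**Figure D4:**
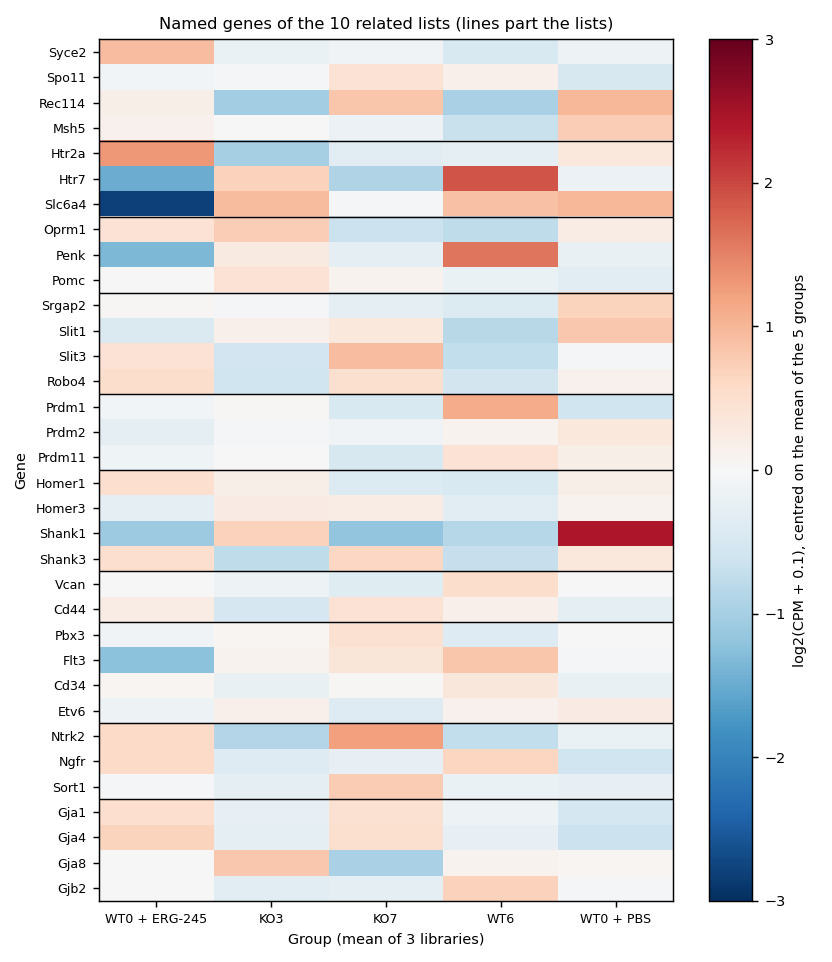
Group means of genes from 10 lists of paralogs and partners, as log2(CPM + 0.1) centred on the mean of the 5 groups, with lines between lists. Columns are WT0 with ERG-245, KO3, KO7, WT6 and WT0 with PBS. Htr7 and Penk are reddest in WT6 and Shank1 in WT0 with PBS.

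All neuronal markers examined, except Map2 and Tubb3, stood at a mean of 1.46 CPM or less in every group. The sum of 8 neuronal markers was 14.9 to 15.5 CPM per library in WT0 with ERG-245, 41.1 to 44.4 in KO3, 23.5 to 27.6 in KO7, 17.4 to 20.3 in WT6 and 24.8 to 25.3 in WT0 with PBS. Most of it was Map2 and Tubb3, and Snap25, a synaptic fusion protein, had 0 counts in every group. WT6, the group with the highest Htr4, Oprk1, Ntrk3 and Srgap3, did not have the highest sum of these 8 markers, which rests mainly on Map2 and Tubb3. Necab1 and Grin2c, named above for their pattern and not among these markers, were highest in WT6 (150.0 and 68.4 CPM). Map2, a dendritic microtubule protein, stood at 2.32 CPM in WT0 with ERG-245, 29.6 in KO3, 2.69 in KO7, 9.64 in WT6 and 18.2 in WT0 with PBS. It was named after its values were seen, and its 2 highest groups were those of Gjc1.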

How the data were processed

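RNA-seq reads were trimmed and aligned with tools listed in the submitters' processing notes (Trim Galore, STAR, Subread and DESeq2, build mm10). The deposited values are raw counts per gene made by the authors with featureCounts 2.0.1, per the file headers, on the RefSeq annotation of GRCm38.p6, with a minimum overlap of 25 bases and the strand setting 2. The deposited table also gives merged exon length (unit other) and exon positions. Of 39836 lines, 9 from 3 genes were broken and left out. Gene IDs were paired with RefSeq symbols for 39743 genes. Total counts were 17441292 to 28902573 per library.

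Genes were filtered with edgeR's default rule (15948 kept), scaled by TMM and tested with edgeR 4.0.16 quasi-likelihood F tests in R 4.3.3. The tests came from 1 fit over 5 groups with 10 residual degrees of freedom and were Benjamini-Hochberg adjusted over all genes tested. A prior count of 2 was used for the log2 CPM behind the nearest patterns, and fold changes kept edgeR's default. The script was tested on simulated data with 200 changed genes. The 10 genes and all lists were chosen with earlier results of these data known. Besides the 10 genes and Bcat1, genes were named by rule. These were neighbours called where their gene differed at least 8-fold, the 3 nearest patterns per gene, and, from each list, the 4 genes or fewer with the lowest p. Marker genes are named from their lists, and other genes are said to be named after their values were seen. DESeq2 1.42.0, other scaling, no filter, leaving out each library, a fit of only the groups compared and a replicate block were alternatives. Counting intervals are exact at 95% and cover counting error only. A gene that the rule names in the related lists is not reported here.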

Additional observations from a re-analysis of the deposited data

How the results depend on the processing

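Without the 2-fold threshold, genes past the adjusted p numbered 10488 (WT0 with ERG-245 as compared with PBS), 10992 (KO7 with WT6), 9522 (KO3 with WT6), 11068 (KO7 with WT0 PBS), 10614 (KO3 with WT0 PBS), 11558 (WT6 with WT0 PBS) and 11270 (KO3 with KO7). With it they numbered 1870, 2784, 1833, 2584, 1954, 3013 and 3125 in the same order. Neighbours past the adjusted p at any size numbered 27 in the same and 16 in the opposite direction (of 64 pairs, where 34.3% and 33.3% of all genes passed in those directions), against 7 and 5 with the threshold, and calls in the related lists numbered 249, against 100 with it. Over all genes within 500 kb, 34 of 344 pairs were called in the same and 38 in the opposite direction. With gene models left out so that only named genes counted as neighbours, 4 of 104 pairs (3.85%) were called in the same and 9 (8.65%) in the opposite direction, against 8.17% and 7.72% of all genes.

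Leaving out each library in turn gave, in the order of comparisons above, 1886 to 1940, 2822 to 2903, 1835 to 1896, 2589 to 2674, 1970 to 2031, 3048 to 3122 and 3128 to 3220 calls, 6 to 8 and 5 to 7 neighbours in the same and the opposite direction and 101 to 119 list calls. The groups share replicate numbers, and a replicate block gave 1860, 2776, 1822, 2571, 1942, 3004 and 3118 calls, 7 and 5 neighbours and 99 list calls. Deviations of same-numbered libraries correlated at -0.152 to 0.0971, with 0 of 21 pairs over 0.1. The labels do not say whether libraries of the same number share a batch, and these correlations cannot decide it. The ratios of the highest to the lowest group for the 10 genes moved by less than the spread between replicates in 170 of 170 recomputations, although for Hormad2 the log2 ratio of 6.4 became 7.14 without WT6 replicate 3. Levels under about 0.1 CPM rest on few counts and limit the precision of large folds.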
